A study of Homo sapiens with 12 samples.

Results

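The genes described here are 9 genes of glycogen metabolism, PYGL, PYGB, PHKA1, PHKB, GYS1, GBE1, GYG1, PGM1 and UGP2, out of 54127 genes in the count tables. They were listed by function and were selected on the contrast of PBKi against DMSO with its result known. Their own changes and calls are therefore given below as a description and not as a test. All 9 were among the 14505 genes that passed the count filter. RNAseq was performed on C4-2 cells, an androgen-responsive prostate cancer (PrCa) line derived from LNCaP, grown in full medium with serum. In all, 6 libraries were from cells given the vehicle DMSO and 6 from cells given the PBK inhibitor HI-TOPK-032 (PBKi) at 1 µM for 6 h, and no other genotype, agent or dose entered the comparison. PBK, also called TOPK, is a mitotic kinase. According to the labels the RNA came from flow-sorted cells, with the gate not given. The RNAseq methods of the paper mention no sorting, so whether these samples were sorted is unclear. Both groups are 1 cell line, and the labels do not say that the replicates were separate cultures, so the p-values measure only the spread between these samples.

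Glycogen is the branched polymer in which cells store glucose. Glycogen phosphorylase releases glucose 1-phosphate from its chain ends and exists as liver (PYGL), brain (PYGB) and muscle (PYGM) isozymes, which are switched on by phosphorylase kinase, a complex of α, β, γ and calmodulin subunits. In the direction of storage, phosphoglucomutase and UGP2 make UDP-glucose, glycogenin (GYG1) starts the chain, glycogen synthase (GYS1) extends it and the branching enzyme (GBE1) adds branches. A further share of glycogen is broken down inside lysosomes by acid α-glucosidase (GAA).

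PYGL and PYGB encode enzymes with the same reaction, but their transcripts differed in behaviour between the groups. The 250 bases before the start of each gene are therefore shown, from RefSeq and placed on GRCh37, at chr14:51411202-51411451 on the minus strand for PYGL and chr20:25228471-25228720 on the plus strand for PYGB. Both are written from 5′ to 3′ on the strand of the gene, and the capitals mark every GC box, searched as GGGCGG and as its complement CCGCCC:
PYGL promoter: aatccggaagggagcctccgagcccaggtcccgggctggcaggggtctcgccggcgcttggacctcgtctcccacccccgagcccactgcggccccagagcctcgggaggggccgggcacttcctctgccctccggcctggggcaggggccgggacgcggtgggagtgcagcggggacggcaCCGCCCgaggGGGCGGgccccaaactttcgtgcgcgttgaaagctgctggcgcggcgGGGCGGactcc
PYGB promoter: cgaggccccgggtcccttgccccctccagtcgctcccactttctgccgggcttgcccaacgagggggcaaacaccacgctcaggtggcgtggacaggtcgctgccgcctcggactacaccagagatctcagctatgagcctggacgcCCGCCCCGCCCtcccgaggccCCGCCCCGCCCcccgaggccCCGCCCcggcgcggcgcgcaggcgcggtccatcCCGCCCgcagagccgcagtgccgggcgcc
The PYGL window held 3 GC boxes and the PYGB window held 6, where neighbouring matches can share a base. The GC content was 76.0% and 76.4%, respectively. A GC box was present in at least 1 window of 46.24% of 27305 genes with a RefSeq promoter, and in all 9 glycogen genes. The E-box CACGTG, a palindrome, was found in 7.73% of genes and in 1 of the 9, GYG1. The androgen receptor half-site AGAACA, searched together with TGTTCT, was found in 14.82% of genes and in 0 of the 9. These matches describe letters in short windows and no binding was measured.

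Reads assigned to genes ranged from 9663203 to 28029908 per DMSO library and from 13122415 to 22817803 per PBKi library. PBK itself, which the compound targets as a protein, ranged from 169.64 to 269.71 CPM, the counts scaled by library size after TMM adjustment, in DMSO and from 140.28 to 185.14 CPM in PBKi (log2 fold change -0.42, SE 0.095, adjusted p = 0.00194 in edgeR). The line expressed all 8 prostate epithelial markers examined, with a summed level of 4517 to 5451 CPM in DMSO and 2274 to 3121 CPM in PBKi. This sum was lower in every PBKi library, and its part in the results below was not tested. Hepatocyte markers, relevant to a liver isozyme, summed to at most 2.40 CPM in any library, with ALB and FGB at 0. Skeletal muscle markers summed to 51.7 to 65.9 CPM in DMSO and 42.6 to 55.4 CPM in PBKi, and only 1 of 5, MB, passed the filter. Leukocyte markers summed to at most 0.763 CPM, endothelial markers to 3.09 to 7.25 CPM and fibroblast markers to 16.8 to 22.7 CPM over all libraries. The fibroblast sum was nearly all COL1A1, with COL1A2, DCN and LUM at 0.277 CPM or less. The endothelial sum was nearly all VWF, with CDH5 at 0.084 CPM or less and PECAM1 not matched. In bulk RNA, fewer cells of a type and less RNA per cell cannot be told apart. The replicates numbered 1 to 3 and 4 to 6 lay apart for several of the genes, as described below, but the labels name no batch, so changes within each set are given beside the pooled ones.

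PYGL, the liver phosphorylase, had the lowest fold change of the 9 genes. In DMSO the libraries held 105.56, 104.37, 90.48, 110.1, 101.37 and 107.84 CPM in order of replicate number. In PBKi they held 60.04, 57.51, 45.17, 68.96, 66.85 and 63.38 CPM. Every PBKi library was below every DMSO library, and replicate 3 was the lowest of both groups. The DMSO libraries averaged 103.29 ± 6.94 CPM and the PBKi libraries 60.32 ± 8.53 CPM (SD, n = 6), a log2 fold change of -0.78 (SE 0.084, 95% interval -0.95 to -0.60) or a PBKi level 0.584 times that of DMSO. Of all genes tested, 196 (1.35%) had a lower log2 fold change. Within replicates 1 to 3 the log2 fold change was -0.88 (SE 0.092), and within replicates 4 to 6 it was -0.68 (SE 0.075). Without PBKi replicate 3 it was -0.69. The gene lies on GRCh37 at chr14:51324609-51411201 on the minus strand, and 7.18% of the 40-base windows of its transcripts also occur in other annotated transcripts.

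PYGB, the brain phosphorylase, showed no such separation over all libraries. Its level was 139.92 CPM in the lowest, 154.82 in the median and 211.62 in the highest DMSO library, against 154.56, 158.89 and 181.94 CPM in PBKi. The PBKi range lay inside the DMSO range. The mean was 164.28 ± 28.5 CPM in DMSO and 165.45 ± 12.6 CPM in PBKi (SD over 6 libraries each), which gave a log2 fold change of 0.01 (SE 0.090) with a 95% interval from -0.18 to 0.20. The spread in DMSO followed the replicate sets, since replicates 1 to 3 held 139.92 to 143.99 CPM and replicates 4 to 6 held 165.66 to 211.62 CPM. In PBKi, replicates 1 to 3 held 154.56 to 159.18 CPM, above every DMSO library of that set. PBKi replicates 4 to 6 held 157.19 to 181.94 CPM. The log2 fold change was 0.16 (SE 0.050) within replicates 1 to 3 and -0.10 (SE 0.096) within replicates 4 to 6, so its sign differed between the sets. PYGB lies at chr20:25228721-25278648 on the plus strand and shares no 40-base window with another annotated transcript.

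**Figure D1:**
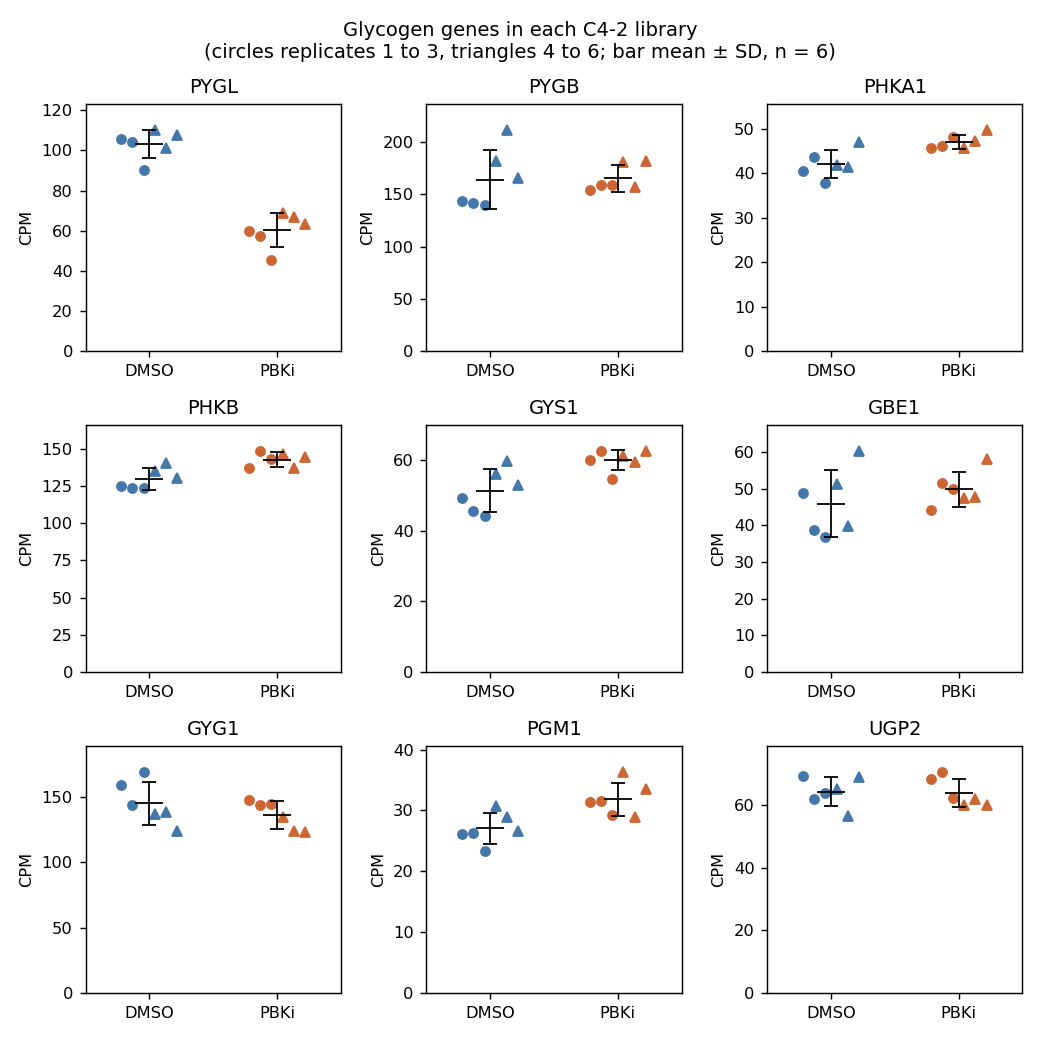
Level of each of the 9 glycogen genes in CPM (y axis, from 0) in the 6 DMSO and 6 PBKi libraries (circles, replicates 1 to 3; triangles, replicates 4 to 6), with the mean and SD as a bar. PYGL is the gene whose groups do not overlap, at 90.48 to 110.1 CPM in DMSO and 45.17 to 68.96 CPM in PBKi, whereas the PBKi points of PYGB lie within the DMSO range.

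The muscle phosphorylase PYGM was near the limit of detection, with 3 to 12 counts per library, and was not tested. Phosphorylase transcript in these cells was therefore mostly PYGB and PYGL. Levels of the isozymes were compared as CPM per kilobase of exon. PYGL made up 31.9% of the summed level of PYGL, PYGB and PYGM in the lowest, 38.8% in the median and 41.7% in the highest DMSO library, and 21.8%, 26.6% and 29.4% in PBKi. The ranges did not overlap, and the mean share was 38.4 ± 3.63% and 26.2 ± 2.56% (SD, n = 6), respectively, a difference of -12.1 percentage points. With the length of the canonical transcript in place of all exons the mean shares were 48.2% and 34.7%, so the size of the share depended on the length used. Each gene had the same length in all libraries, so this change could not decide the direction of the difference and is no check on it.

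The sum of PYGL and PYGB per exon kilobase was 51.3, 58.2 and 69.8 CPM in the lowest, median and highest DMSO library and 45.5, 49.2 and 55.8 CPM in PBKi. These ranges overlapped. Set against GYS1, the synthase for the opposite reaction, the same sum was 4.77 to 5.09 times the level of GYS1 in DMSO (mean 4.93 ± 0.103, n = 6) and 3.28 to 3.88 times in PBKi (mean 3.56 ± 0.216, n = 6). The ratio of degrading to synthesising transcript thus had separate ranges, with a lower mean of PYGL and a higher mean of GYS1 in PBKi. This is a ratio of transcript levels, and neither enzyme activity nor glycogen was measured.

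**Figure D2:**
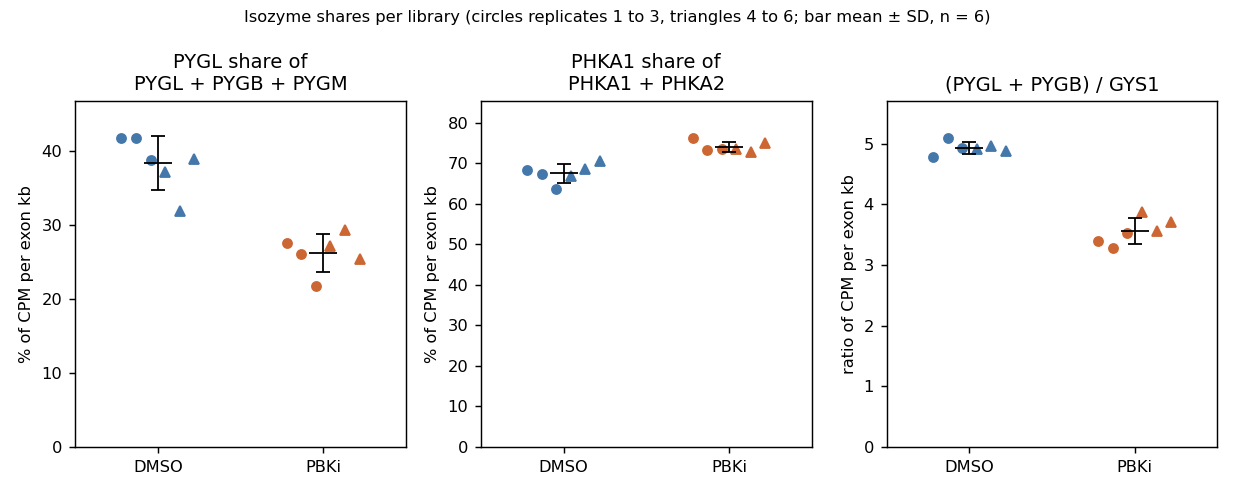
Left, share of PYGL in the summed CPM per exon kilobase of PYGL, PYGB and PYGM (y axis, %). Middle, share of PHKA1 in PHKA1 and PHKA2 (y axis, %). Right, ratio of PYGL plus PYGB to GYS1 (y axis, ratio of CPM per exon kilobase). Points are libraries, bars are mean and SD of 6; the PBKi libraries lie below all DMSO libraries on the left (21.8 to 29.4% against 31.9 to 41.7%) and right, and above them in the middle (72.8 to 76.2% against 63.7 to 70.6%).

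The phosphorylase kinase subunits on the list had positive log2 fold changes. PHKA1, the muscle α subunit, held 37.72, 41.70 and 47.08 CPM (lowest, median, highest) in DMSO and 45.68, 46.78 and 49.71 CPM in PBKi. PHKB, the β subunit, held 123.43, 127.55 and 140.65 CPM in DMSO and 136.68, 143.66 and 148.33 CPM in PBKi. The groups overlapped for both genes, with 3 PBKi libraries above the DMSO range for PHKA1 and 4 for PHKB. The log2 fold changes were 0.17 (SE 0.056) for PHKA1 and 0.14 (SE 0.048) for PHKB. Within replicates 1 to 3 they were 0.22 for both genes, and within replicates 4 to 6 they were 0.13 (SE 0.084) and 0.08 (SE 0.071). PHKA1 lies at chrX:71798664-71934167 on the minus strand and PHKB at chr16:47495034-47735434 on the plus strand, and 7.19% of the 40-base windows of PHKA1 are shared with its pseudogene PHKA1P1.

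Of the 3 α and γ subunit genes tested that were not among the 9 genes, PHKA2 was called and PHKG1 and PHKG2 were not. PHKA2, the liver α subunit, was at 25.4, 27.3 and 28.96 CPM in DMSO and 19.2, 22.7 and 23.8 CPM in PBKi, and the groups did not overlap. It fell in the quasi-likelihood test of edgeR, adjusted over all genes by Benjamini-Hochberg (log2 fold change -0.29, SE 0.064, adjusted p = 0.00165), and 18.08% of its 40-base windows are shared with other transcripts, mostly its antisense gene PHKA2-AS1. PHKG2, the liver γ subunit, was at 23.2, 28.7 and 30.3 CPM in DMSO and 25.4, 28.6 and 32.5 CPM in PBKi (log2 fold change 0.05, SE 0.077, adjusted p = 0.607 in edgeR). PHKG1, the muscle γ subunit, had only 4 to 29 counts per library (log2 fold change 0.41, SE 0.328, adjusted p = 0.328 in edgeR). Of the summed level of the α subunits per exon kilobase, PHKA1 made up 63.7 to 70.6% in DMSO (mean 67.5 ± 2.29%) and 72.8 to 76.2% in PBKi (mean 74.0 ± 1.28%), so that the muscle-type subunit took the larger share in every library and a higher one in PBKi. With canonical transcript lengths the mean shares were 55.5% in DMSO and 63.1% in PBKi, so the size of this share also depended on the length used.

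Among genes for chain building, GYS1, the widely expressed glycogen synthase, was at 44.18, 51.10 and 59.72 CPM in DMSO and 54.79, 60.51 and 62.57 CPM in PBKi. In PBKi, 4 libraries lay above the DMSO range. The log2 fold change was 0.23 (SE 0.070), or 0.36 (SE 0.067) within replicates 1 to 3 and 0.12 (SE 0.078) within replicates 4 to 6. The liver synthase GYS2 had 0 counts in all 12 libraries. GYS1 lies at chr19:49471387-49496567 on the minus strand and shares no 40-base window with another transcript.

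GBE1, the branching enzyme, was at 36.93, 44.25 and 60.25 CPM in DMSO and 44.18, 48.85 and 58.21 CPM in PBKi. The PBKi range lay inside that of DMSO, and the log2 fold change of 0.12 (SE 0.104) had a 95% interval from -0.10 to 0.34. GYG1, the primer protein, was at 123.86, 141.42 and 169.35 CPM in DMSO and 123.58, 139.62 and 147.8 CPM in PBKi. Its groups overlapped, although DMSO replicates 1 (159.39 CPM) and 3 lay above every PBKi library, with a log2 fold change of -0.09 (SE 0.072, 95% interval -0.24 to 0.06). The DMSO libraries of GYG1 were again split by set, at 143.82 to 169.35 CPM in replicates 1 to 3 and 123.86 to 139.02 CPM in replicates 4 to 6. Of the 40-base windows of GYG1, 24.79% are shared, mostly with HLTF on the opposite strand (log2 fold change -0.57), and it was not given how reads over both genes were assigned. GBE1 lies at chr3:81538854-81810796 on the minus strand and GYG1 at chr3:148709195-148749562 on the plus strand.

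GYG2, the second glycogenin, was much lower than GYG1 and did not pass the test (DMSO mean 9.23 ± 1.41 CPM, PBKi mean 8.26 ± 1.13 CPM, log2 fold change -0.15, SE 0.115, adjusted p = 0.311 in edgeR). GYG1 held 88.2% of glycogenin transcript per exon kilobase in DMSO and 88.7% in PBKi.

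Of the enzymes that connect glucose 6-phosphate with UDP-glucose, PGM1, which interconverts glucose 6-phosphate and glucose 1-phosphate, was at 23.33, 26.52 and 30.75 CPM in DMSO and 28.93, 31.46 and 36.31 CPM in PBKi. The groups overlapped, with 4 PBKi libraries above the DMSO range. The log2 fold change was 0.24 (SE 0.074), or 0.30 (SE 0.075) within replicates 1 to 3 and 0.20 (SE 0.104) within replicates 4 to 6. UGP2, which makes UDP-glucose, was at 56.58, 64.39 and 69.29 CPM in DMSO and 59.91, 62.05 and 70.50 CPM in PBKi. These groups overlapped and the log2 fold change was -0.01 (SE 0.060), with a 95% interval from -0.14 to 0.11. PGM1 lies at chr1:64059082-64125916 and UGP2 at chr2:64068086-64118696, both on the plus strand.

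PGM2 and PGM2L1, relatives of PGM1, were higher in PBKi. PGM2 was at 84.0, 88.4 and 91.9 CPM in DMSO and 99.7, 105.8 and 110.9 CPM in PBKi without overlap, and it rose in edgeR's test (log2 fold change 0.26, SE 0.045, adjusted p = 0.000165). PGM2L1, a relative that makes glucose 1,6-bisphosphate, rose from a mean of 6.91 ± 1.18 CPM to 9.68 ± 1.67 CPM (log2 fold change 0.49, SE 0.126, adjusted p = 0.00442 in edgeR), with 5 of 6 PBKi libraries above the DMSO range. The share of PGM1 in the summed level of these 3 genes per exon kilobase was 21.2 ± 1.95% in DMSO and 20.7 ± 1.35% in PBKi.

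Across the 9 genes, an adjusted p below 0.05 in edgeR was reached by 4 in the direction of a higher level (PHKA1, PHKB, GYS1 and PGM1), against 20.1% of all genes tested, and by PYGL in the lower direction, against 21.5%. Every PBKi library lay below every DMSO library for 1 gene, against 9.68% of all genes, and above for 0, against 10.5%. Since the list was chosen from this contrast, nothing is read from these counts. The median log2 fold change of the 9 genes was 0.12 and that of all genes was -0.01. As a description of the fit, PHKA1 and PHKB missed the threshold without DMSO replicate 1 and without DMSO replicate 3, where 2 genes were called higher. PHKB missed it also without PBKi replicate 2.

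**Figure D3:**
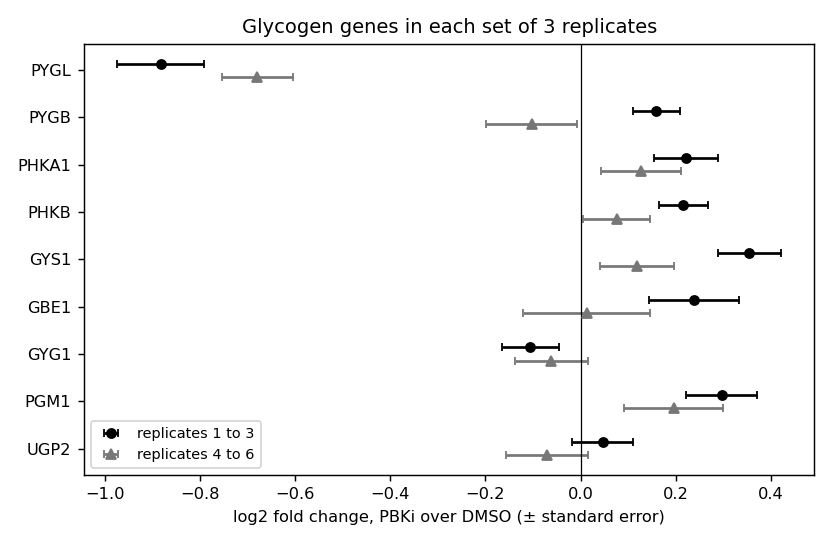
Log2 fold change of each gene, PBKi over DMSO (x axis, with standard error), fitted within replicates 1 to 3 (black circles) and replicates 4 to 6 (grey triangles). PYGL lies at -0.88 and -0.68 and GYS1 at 0.36 and 0.12, while PYGB and UGP2 lie on opposite sides of 0 in the sets.

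Per exon kilobase, PYGB had the highest level of the 9 genes in DMSO (median 34.7 CPM), followed by PYGL (23.1) and GYG1 (18.7). Below these were GYS1 (12.05), PHKB (10.7), GBE1 (9.51), UGP2 (9.48), PHKA1 (6.57) and PGM1 (6.50). Only PYGB and PYGL, GYG1 and GYS1, and UGP2 and PHKA1 were neighbours with separate ranges in this order. In PBKi, PYGB was again highest (35.7) and separate from GYG1 (18.5), which was separate from GYS1 (14.3). PYGL was then at place 4 (13.6), with a range that overlapped those of GYS1 and PHKB (12.1), and GBE1 (10.5), UGP2 (9.14), PGM1 (7.72) and PHKA1 (7.37) followed, each overlapping with the next. This order depended on the length used. With canonical transcript lengths PYGB and PYGL overlapped in DMSO (medians 37.6 and 37.5 CPM), and UGP2 was at place 3. PYGL then moved from place 2 in DMSO to place 5 in PBKi.

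The shape of the PYGL profile over the 12 libraries was compared with that of 10039 genes, as the root mean square difference in log2 CPM after centring each gene. The nearest genes named here were PDE9A, a cyclic GMP phosphodiesterase (0.0704), HTR3A, a serotonin-gated channel subunit (0.0828), CENPH, a kinetochore protein (0.0879), and MYC, a growth transcription factor (0.0930), against a median of 0.426 over all genes compared. PDE9A, for example, was at 38.9, 42.6 and 45.3 CPM in DMSO and 20.6, 25.7 and 28.96 CPM in PBKi, and its groups did not overlap. The other glycogen genes were at 0.430 to 0.529, as far from PYGL as a typical gene or farther. This is a likeness over the same libraries and was not tested.

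Of 36 other genes of glycogen handling listed by function, 30 were tested, 10 rose, 6 fell and 14 did not pass edgeR's test, where 20.1% of all genes tested were called higher and 21.5% lower. Their median log2 fold change was 0.07, against -0.01 over all genes. On the list of laforin, malin and the lysosomal route, 4 of 5 genes rose and 0 fell, with a median of 0.60, but the lists were chosen with results known and no list was tested against other genes. GABARAPL1, an autophagosome protein that binds STBD1, was at 21.5, 26.7 and 28.6 CPM in DMSO and 40.6, 46.4 and 53.7 CPM in PBKi (log2 fold change 0.84, SE 0.081, adjusted p = 3.21e-07 in edgeR). STBD1, which binds glycogen, was at 1.98, 2.50 and 2.90 CPM and 2.95, 4.25 and 4.95 CPM, respectively, from 24 to 105 counts per library (log2 fold change 0.78, SE 0.141, adjusted p = 0.000291 in edgeR). The groups of both genes were separate, and 88.44% of the 40-base windows of STBD1 lie also in the FAM47E-STBD1 readthrough transcript.

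EPM2A, the glycogen phosphatase laforin, was at 4.22, 4.84 and 6.65 CPM in DMSO and 7.21, 7.67 and 8.73 CPM in PBKi (log2 fold change 0.60, SE 0.116, adjusted p = 0.000458 in edgeR). GAA, the lysosomal enzyme that cleaves glycogen, was at 55.7, 58.4 and 74.1 CPM in DMSO and 77.3, 81.8 and 84.9 CPM in PBKi (log2 fold change 0.42, SE 0.064, adjusted p = 4.91e-05 in edgeR). In both, every PBKi library was above every DMSO library. NHLRC1, the ubiquitin ligase malin, did not pass the test (log2 fold change 0.20, SE 0.124, adjusted p = 0.198 in edgeR). The E-box CACGTG was found before 5 of the 28 other glycogen genes with a RefSeq promoter, namely EPM2A, GAA, PGM2, PPP1R3C and PPP1R3D. GABARAPL1, STBD1 and NHLRC1 had none. The GC box was found before 22 and the androgen receptor half-site before 3. Over all genes with a RefSeq promoter the shares were 7.73%, 46.24% and 14.82%, respectively. No binding was measured.

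Protein phosphatase 1 and its glycogen-targeting subunits, which together activate glycogen synthase and switch off phosphorylase, had 7 genes tested, of which 3 rose and 2 fell, beside 20.1% and 21.5% of all genes. PPP1R3E, a targeting subunit, was at 6.19, 6.72 and 7.89 CPM in DMSO and 8.73, 10.7 and 13.4 CPM in PBKi without overlap (log2 fold change 0.66, SE 0.098, adjusted p = 3.96e-05 in edgeR). The targeting subunits PPP1R3F and PPP1R3D also rose, by 0.42 (SE 0.114) and 0.36 (SE 0.067) on the log2 scale. PPP1R3B, the targeting subunit known from liver, and the catalytic subunit PPP1CC fell, with log2 fold changes of -0.49 (SE 0.114) and -0.36 (SE 0.049). Of 8 tested kinases and kinase subunits that act on glycogen synthase, PRKAA1 and PRKAA2, the catalytic subunits of AMPK, fell (log2 fold changes -0.26, SE 0.055, and -0.32, SE 0.075) and 0 rose, a number lower that is near the 21.5% of all genes. Of the genes for calmodulin, which is also a subunit of phosphorylase kinase, CALM3 fell (log2 fold change -0.33, SE 0.069) and CALM2 did not pass the test (-0.16, SE 0.082).

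Of 16 genes listed for glucose uptake and glucose 6-phosphate, 10 were tested, 7 fell and 0 rose, where 21.5% of all genes tested were called lower and 20.1% higher. The median log2 fold change of the 10 was -0.42, and this list too was not tested against other genes. SLC2A12, a glucose transporter gene, was at 14.1, 16.5 and 19.5 CPM in DMSO and 6.82, 8.99 and 10.3 CPM in PBKi without overlap (log2 fold change -0.93, SE 0.111, adjusted p = 3.92e-06 in edgeR). Of its exon bases 51.18% are overlapped by TBPL1 on the opposite strand, whose log2 fold change was -0.34. SLC2A4, the insulin-responsive transporter GLUT4, was at 4.98, 5.51 and 6.38 CPM and 3.04, 3.62 and 4.01 CPM, respectively, also without overlap (log2 fold change -0.61, SE 0.101, adjusted p = 0.000117 in edgeR). SLC2A3, the transporter GLUT3, fell with only 4 to 26 counts per library, and 22.26% of its 40-base windows are shared, mostly with SLC2A14 (log2 fold change -1.39, SE 0.350, adjusted p = 0.00407 in edgeR).

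SLC2A1, the widely expressed transporter GLUT1, was at 84.0, 108.4 and 119.7 CPM in DMSO and 57.5, 79.0 and 89.2 CPM in PBKi, and its groups overlapped (log2 fold change -0.45, SE 0.099, adjusted p = 0.00151 in edgeR). HK2, a hexokinase that phosphorylates glucose, and GPI, the glucose 6-phosphate isomerase, had log2 fold changes of -0.43 (SE 0.115) and -0.40 (SE 0.097), and SLC37A4, the glucose 6-phosphate transporter, of -0.19 (SE 0.058), all with adjusted p below 0.05 in edgeR. HK1, the other hexokinase tested, did not pass the test (log2 fold change 0.04, SE 0.067). Among 9 genes that use UDP-glucose or form the galactose pathway, 8 were tested and 1 rose, UGDH, the UDP-glucose dehydrogenase (log2 fold change 0.22, SE 0.048, adjusted p = 0.00155 in edgeR), and 0 fell, beside 20.1% and 21.5% of all genes.

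**Figure D4:**
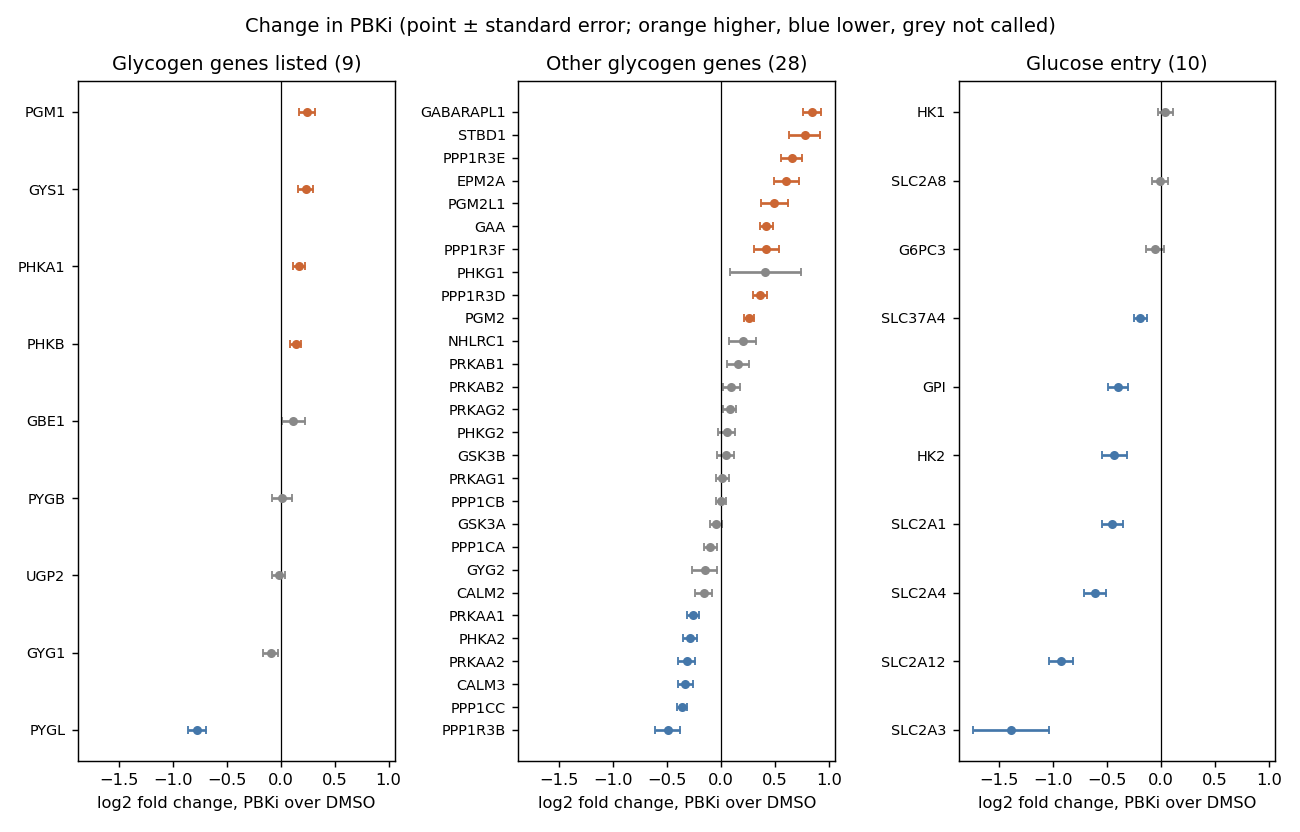
Log2 fold change, PBKi over DMSO (x axis, point with standard error), of the 9 glycogen genes, 28 of the other glycogen genes tested and the 10 genes of glucose entry tested. Orange marks genes higher and blue genes lower in PBKi at an adjusted p below 0.05 in edgeR, with grey for the rest. For the 9 genes, chosen from this contrast, the colours are a description only. PYGL at -0.78 is the blue point among the 9, and the genes of glucose entry that were called all lie below 0.

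**Figure D5:**
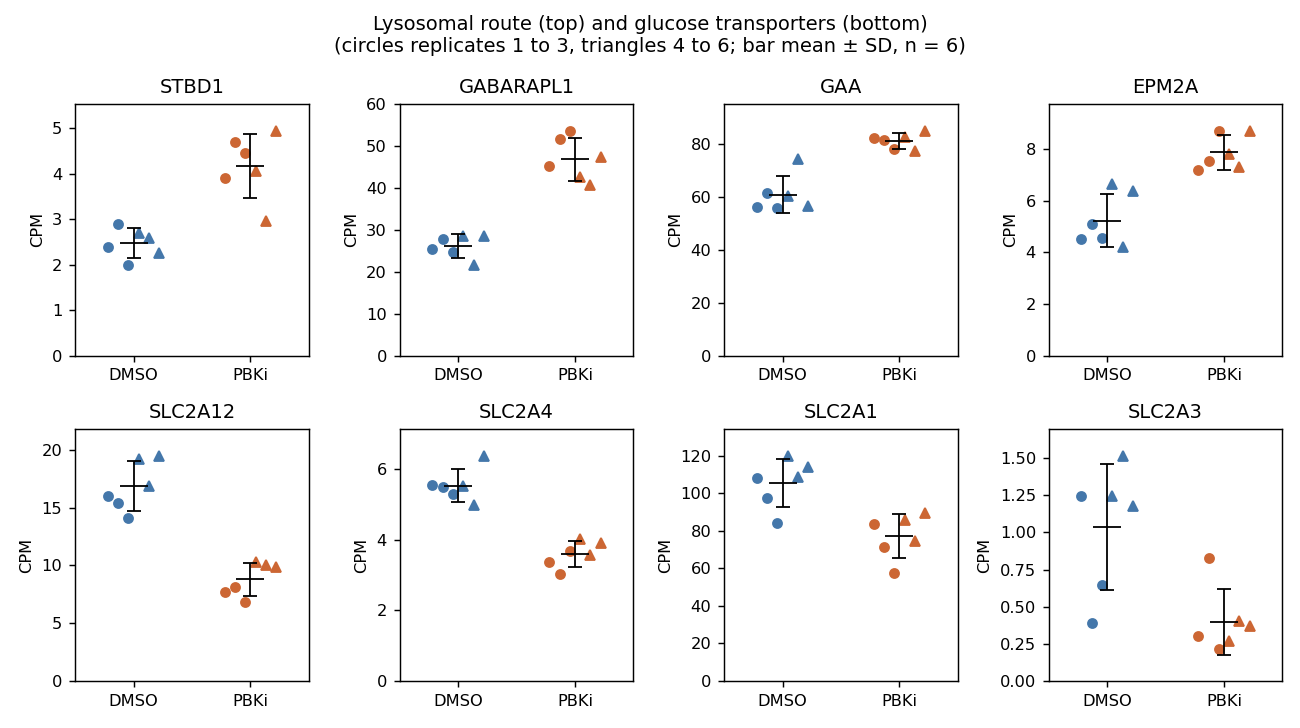
Level in CPM (y axis, from 0) of 4 genes of the lysosomal route and laforin (top) and 4 glucose transporters (bottom) in each DMSO and PBKi library (circles, replicates 1 to 3; triangles, replicates 4 to 6; bar, mean and SD). The top genes have all PBKi libraries above all DMSO libraries, SLC2A12 and SLC2A4 have them below, and SLC2A1 and SLC2A3 overlap.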

How the data were processed

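RNA from C4-2 cells was sequenced as 40-base single-end reads, and 47 lane tables of raw counts per Ensembl gene were deposited. Per the labels and the submitters' processing notes, the authors aligned reads with TopHat2 2.0.4 and counted them with HTSeq 0.5.3p9 on GRCh37; whether strand was used is not given in the sources used here. Lane counts were summed into 12 samples (4 lanes each, 3 for DMSO replicate 5), leaving out rows that name no gene (reads outside genes were 5.74 to 9.30%).

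Groups were taken from the labels. Genes reaching 10 counts in 6 or more samples were fitted with edgeR 4.0.16 (TMM, quasi-likelihood test without covariates, Benjamini-Hochberg over 14505 genes, threshold 0.05) in R 4.3.3, a test that was tried on simulated data. DESeq2 1.42.0 and limma 3.58.1 (voom), size factors, filters, lanes, a replicate block, replicate sets and leaving out each replicate were the alternatives. CPM use TMM library sizes. Exon lengths are unions of GENCODE 44 exons on GRCh37. These exons can differ from those of the annotation on which the authors counted, and all levels per kilobase rest on them. The 9 genes and all lists were chosen with earlier results of these data known.

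Named were the 9 genes, their isozymes and partners, other listed genes with adjusted p below 0.05 and a log2 fold change of 0.5 or more in size, PBK, and the 5 genes nearest to PYGL; a few genes that these rules name are not reported here. Other listed genes that are named, such as GAA and SLC2A1, were picked after their values were seen.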

Additional observations from a re-analysis of the deposited data

Results flagged for a closer look

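Of 48 groups of 6 libraries examined, 3 held a library far from the other 5, where chance gives about 1 in 20 groups. PHKA2 was at 19.24 CPM in PBKi replicate 1, against 22.08 to 23.76 CPM in the other PBKi libraries. PGM2L1 was at 6.312 CPM in PBKi replicate 1, against 9.958 to 10.71 CPM. SLC2A3 was at 0.8294 CPM in PBKi replicate 2, against 0.2119 to 0.4027 CPM. None of the 9 glycogen genes was among the 3.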

How the results depend on the processing

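No result changed sign past its threshold. All 12 libraries gave 2921 genes higher and 3125 lower, and replicates 4 to 6 alone gave 1303 and 1216. Of the 9 genes, 4 were called higher, against 2 without a count filter, 0 in replicates 4 to 6 and 2 to 4 on leaving out 1 library (2 without DMSO replicate 1 and without DMSO replicate 3). In replicates 1 to 3 alone 5 of them were called higher, with PYGB added. Of the other glycogen genes 3 were lower in replicates 4 to 6, against 6. Without a filter 1 gene of glucose entry was higher, against 0. Of the UDP-glucose genes, 2 were higher in replicates 1 to 3 and 0 in replicates 4 to 6, against 1. The number lower, 0 at first, was 2 with the replicate block, 1 with lanes 6 to 8 and 0 to 1 on leaving out 1 library (1 without DMSO replicate 6). PHKB had a log2 fold change of 0.22 in replicates 1 to 3, against 0.14. Canonical lengths gave a PYGL share of 48.2% in DMSO and 34.7% in PBKi. The canonical lengths and the count over the 9 genes were added after seeing the data. The cause of these shifts was not tested.

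Replicates 4 to 6 alone left PHKA2 (adjusted p = 0.0947 in edgeR), EPM2A (0.0961), STBD1 (0.0636) and PBK (0.0578) short of the threshold, and replicates 1 to 3 alone SLC2A3 (0.154). Same-numbered samples deviated together with a mean correlation of 0.20 (0.09 to 0.30), against -0.04 between other numbers. Of 12 samples, 8 correlated best with their own number. Since the lowest pair was under 0.1 the numbers were not taken as pairs. The fit without covariates therefore does not model this shared deviation, which stays in its standard errors. With the replicate block, 3485 genes were higher and 3803 lower, and PYGL had a log2 fold change of -0.79 (SE 0.053, against 0.084 without the block). Counts under 30 per library limit SLC2A3, PHKG1 and PYGM.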
